A study of Homo sapiens with 11 samples.

Results

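RNA of H209 was compared with RNA of MRC5. H209 is an established line of small cell lung carcinoma, an aggressive lung tumour with neuroendocrine features, and was represented by 2 libraries. MRC5 is a lung fibroblast line that is not cancerous, made up of the matrix-making cells of connective tissue, and was represented by 3 libraries. Both lines grew in RPMI 1640 medium with 20% fetal bovine serum, nonessential amino acids and GlutaMAX, and no treatment is named. These 5 RNA libraries are 5 of the 11 samples of a study of chromatin domains in lung lines, in which RNA and Hi-C were collected from H209, MRC5 and a further carcinoma line. Each gene table lists 57815 genes, of which 17172 reached an FPKM (fragments scaled by transcript length and by the library's mapped fragments) of at least 1 in 2 or more of the 5 libraries and were tested. Each line is 1 cell line from 1 donor, so disease, cell type and donor cannot be told apart. Nothing says that the libraries of a line came from separate cultures, so p-values measure how libraries of a line vary, which may be technical only.

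Small cell lung carcinoma arises mostly from neuroendocrine cells of the airway. Such cells carry dense-core vesicles with peptide hormones and are run by proneural transcription factors such as NEUROD1. Nearly all of these tumours lose the cell cycle brake RB1, and in culture most of their lines grow as floating clusters. Lung fibroblasts spread on a substrate through integrins and actin stress fibres, secrete collagen, and use the YAP and TGF-beta pathways that respond to tension and injury.

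Libraries of 1 line had Pearson correlations across tested genes, which are not independent replicates, of 0.994 in H209 and of 0.994 to 0.996 in MRC5, against 0.580 to 0.589 between the lines. The 2 H209 libraries held 16053 and 15963 genes at 1 deposited FPKM or more, and the MRC5 libraries held 13560, 13425 and 13482. The 50 highest genes took 11.7% and 12.5% of the summed FPKM in H209, against 19.3%, 20.7% and 19.4% in MRC5. The tables give no counts, so depth in reads is unknown. The most frequent ratio of low deposited values to those of the first MRC5 library, which moves inversely with depth, was 0.774 and 1.05 in H209 and 0.865 to 0.993 in MRC5. The deposited confidence intervals reached to each side, at the median, by 11.7% to 13.5% of the value for genes at 1 to 10 FPKM and of 3.36% to 3.62% at 100 FPKM or more.

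With FPKM rescaled to equal sums, 7248 genes (42.2% of those tested) were called higher in H209 and 2463 (14.3%) lower, where a call takes a log2 fold change of 1 or more in size at an adjusted p below 0.05 (limma on log2(FPKM + 1), Benjamini-Hochberg adjustment, 2-sided). All but 1 of the 9711 called genes (56.6%) separated both H209 libraries from all MRC5 libraries, as did 91.5% of all tested genes. Of the called genes, 98.7% also had deposited intervals that lay apart, beside 80.5% of all tested genes. The balance of the directions rested on the scaling. The median of all tested genes was 0.75 on the log2 scale, and scaling by median ratios, which brought it to 0.07, called 4344 genes (25.3%) higher and 4101 (23.9%) lower. The share of calls that were higher was 74.6% with equal sums and 51.4% with median ratios. All 4344 of these higher calls were also made with equal sums, all 2463 lower calls stayed lower, and 0 genes were called in opposite directions. Gene groups are therefore given by their calls in both scalings, as equal sums first and median ratios after, and by a relative median, the median log2 fold change of the tested members minus 0.75. For a single gene, an exact permutation test of 2 against 3 libraries cannot go below p = 0.1 (1-sided), or 0.2 when doubled for 2 sides. All levels given for a gene are rescaled FPKM, and every called gene given with its levels kept the libraries of the lines apart. Fold changes on the log2(FPKM + 1) scale understate the change of low genes. Of the tested genes, 3501 (20.4%) were below 1 FPKM throughout MRC5 and 1305 below 1 FPKM throughout H209. These counts use rescaled FPKM and the filter used deposited FPKM, so genes near 1 FPKM may differ between them. Apart from those, such genes passed the filter through the other line alone, which fixed their direction. Where there were any, their number is given beside the counts of each gene list for its main direction. For the more mixed lists it is given for both lines. Where a gene is listed at 0 in every library of a line, only its levels are given.

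**Figure D1:**
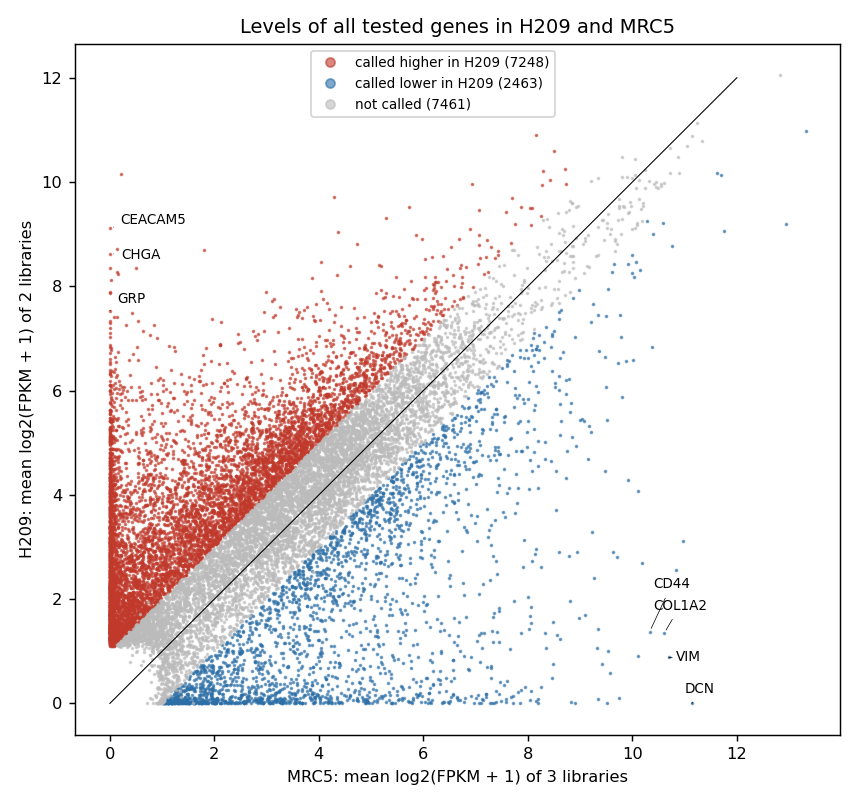
Mean log2(FPKM + 1) of every tested gene in H209 (vertical axis, 2 libraries) against MRC5 (horizontal axis, 3 libraries); each point is a gene, coloured by its call with equal sums, and the line marks equal levels. Points called higher (7248) lie above the line and reach the left edge, and points called lower (2463) lie below it and reach the bottom edge, where DCN sits.

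The labels were checked against marker genes. Of 10 markers of neuroendocrine lung carcinoma, 9 were called higher in H209, each below 1 FPKM throughout MRC5, and all 10 lung fibroblast markers were called lower, 6 of them below 1 FPKM throughout H209. The exception was UCHL1, a neuronal ubiquitin hydrolase, which had 609 and 619 FPKM in H209, against 688, 705 and 672 FPKM in MRC5. MRC5 carried this marker slightly above H209 in every library, and the difference (log2 fold change -0.16) was below the threshold in both scalings. Markers of 10 other cell types made up 73 genes, of which 51 stayed under 1 FPKM in every library. Of the 20 that were tested, 13 were called higher in H209 and 3 lower, beside 42.2% and 14.3% of all tested genes. All of the higher ones but CCDC39 were below 1 FPKM throughout MRC5, and the 3 lower ones were below 1 FPKM throughout H209. The filter thus fixed their direction. With median ratios the only higher call among basal and squamous markers was lost, as were that among muscle markers and 1 of 2 among T and B cell markers. The higher ones included all 5 tested markers of alveolar type II cells and all 3 of club and ciliated cells, which are epithelial cells of the lung. Of these 8, 7 were below 1 FPKM throughout MRC5, and NAPSA and CCDC39 were not called with median ratios. ABCA3, the lipid carrier of lamellar bodies in type II cells, had 9.33 and 8.2 FPKM in H209, against 0.628, 0.809 and 0.887 FPKM in MRC5 (log2 fold change 2.46). CCDC39, a cilium assembly protein, had 16.3 and 18.1 FPKM in H209, against 8.17, 4.87 and 4.88 FPKM in MRC5 (log2 fold change 1.42). The surfactant genes SFTPA1, with 1.89 and 1.47 FPKM in H209, against no more than 0.00616 FPKM in MRC5, and SFTPA2, with 3.33 and 3.31 FPKM in H209, against 0 FPKM in all 3 MRC5 libraries, are alike in sequence, so the split of reads between them is uncertain. The T cell kinase LCK had 21.5 and 22.4 FPKM in H209, against 0.179, 0.0305 and 0.0844 FPKM in MRC5, while the T cell receptor chain CD3D had no more than 0.0176 FPKM in H209, against 0 FPKM in all 3 MRC5 libraries. The endothelial receptor TEK had no more than 0.0611 FPKM in H209, against 30, 24.8 and 29.2 FPKM in MRC5, while the endothelial cadherin CDH5 had 0.412 and 0.495 FPKM in H209, against no more than 0.00438 FPKM in MRC5. The lysosomal glycoprotein CD68, used as a myeloid marker, had 0.765 and 0.796 FPKM in H209, against 21.5, 29.6 and 24.4 FPKM in MRC5, while TYROBP, a myeloid signalling adaptor, had no more than 0.00648 FPKM in H209, against 0 FPKM in all 3 MRC5 libraries. In RNA from whole cultures, fewer cells of a type and less RNA per cell cannot be told apart.

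The genes with the largest differences were near one extreme in each line. At 5 FPKM or more in both H209 libraries and under 0.1 FPKM in all MRC5 libraries were 609 genes, of which 104 were listed at 0 in MRC5. The reverse pattern held in 185 genes, of which 15 were listed at 0 in H209. Both counts stand beside 17172 tested genes and were taken with equal sums alone, under which 74.6% of calls were higher. CEACAM5, the carcinoembryonic antigen of epithelial tumours (chr19:42212504-42233718 in hg19), had 575 and 540.0 FPKM in H209, against 0 FPKM in all 3 MRC5 libraries. SCNN1A, the alpha subunit of the epithelial sodium channel (chr12:6456009-6486896), had 406 and 435 FPKM in H209, against 0.0717, 0.204 and 0.0427 FPKM in MRC5 (log2 fold change 8.58 ± 0.094 SE, adjusted p = 3.58e-08). KIF1A, the kinesin that carries synaptic vesicle precursors along axons (chr2:241653181-241759725), had 312 and 289 FPKM in H209, against 0.165, 0.153 and 0.0127 FPKM in MRC5 (log2 fold change 8.09 ± 0.10 SE, adjusted p = 4.41e-08). TPD52, a vesicle traffic protein often amplified in carcinomas, had 249.9 and 223 FPKM in H209, against no more than 0.00764 FPKM in MRC5 (log2 fold change 7.88). SPINT2, an inhibitor of surface serine proteases, had 325 and 323 FPKM in H209, against 0.413, 0.427 and 0.383 FPKM in MRC5 (log2 fold change 7.85). In each of these genes both H209 libraries lay above all 3 MRC5 libraries.

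At the other end, DCN, the small collagen-binding proteoglycan decorin (chr12:91539025-91576900 in hg19), had no more than 0.000667 FPKM in H209, against 2276, 2212 and 2279 FPKM in MRC5 (log2 fold change -11.14 ± 0.050 SE, adjusted p = 9.29e-09). VIM, the intermediate filament protein of mesenchymal cells (chr10:17270258-17279592), had 1.00 and 0.695 FPKM in H209, against 1611, 1710.5 and 1643 FPKM in MRC5 (log2 fold change -9.81 ± 0.083 SE, adjusted p = 2.39e-08). CD44, the hyaluronan receptor (chr11:35160417-35253949), had 1.71 and 1.48 FPKM in H209, against 1285, 1231 and 1347 FPKM in MRC5 (log2 fold change -8.95 ± 0.068 SE, adjusted p = 2.39e-08). These 3 genes were among the most abundant of MRC5 and close to 1 FPKM or below in H209. GREM1, a secreted antagonist of BMP ligands, had no more than 0.0255 FPKM in H209, against 469, 420.3 and 462 FPKM in MRC5 (log2 fold change -8.80). F3, the tissue factor that starts clotting, had 0.722 and 0.304 FPKM in H209, against 816, 694 and 764 FPKM in MRC5 (log2 fold change -8.98). All MRC5 libraries lay above both H209 libraries in these genes.

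**Figure D2:**
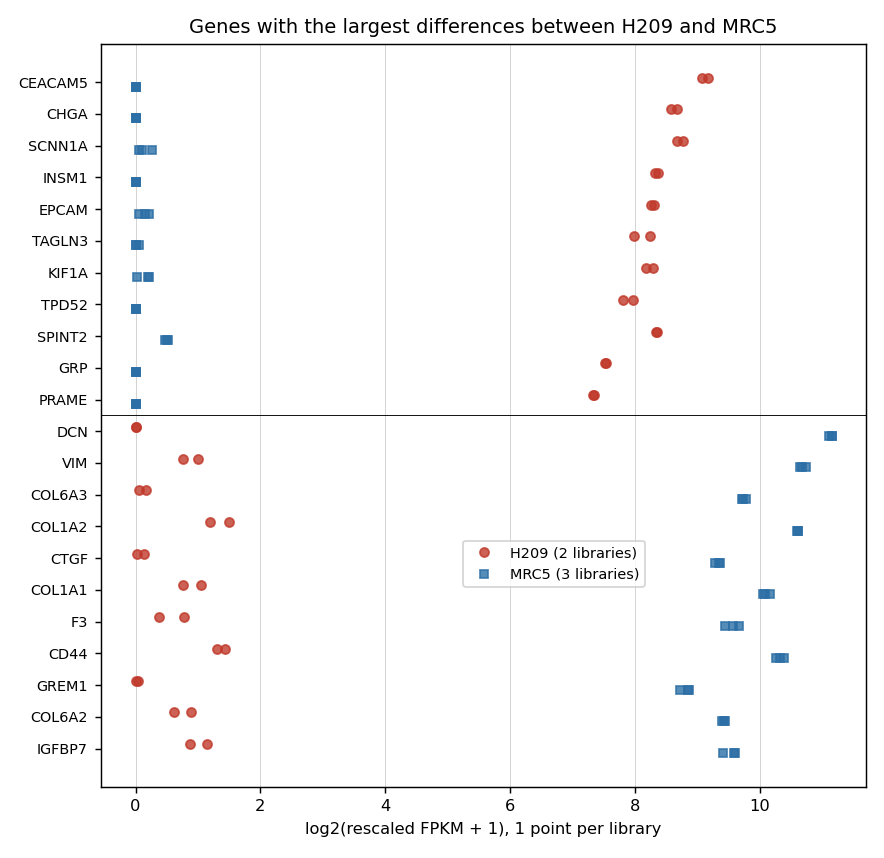
Rescaled levels as log2(FPKM + 1) in each library for 11 of the 12 genes with the largest higher calls in H209 (above the line) and 11 of the 12 with the largest lower calls (below it); circles are the 2 H209 libraries and squares the 3 MRC5 libraries. The circles and squares of each gene stand at opposite ends of the axis, and libraries of 1 line nearly coincide.

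Across 34 lists of genes by function, the share of members called ran from all higher to nearly all lower. Mitosis genes were called higher in every tested member with equal sums, beside 42.2% of all tested genes, with 14 of 65 below 1 FPKM throughout MRC5. All tested neuroendocrine transcription factors and cancer testis antigens were called higher too, but 24 of 28 and all 9 of these were below 1 FPKM throughout MRC5, so the filter fixed their direction. Matrix and matrix protease genes were called lower in 47 of 54 and 32 of 36 members, beside 14.3% of all tested genes, with 27 and 14 below 1 FPKM throughout H209. Cytosolic ribosomal protein genes, respiratory chain genes and glycolysis genes lay between, with most members not called at equal sums.

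**Figure D3:**
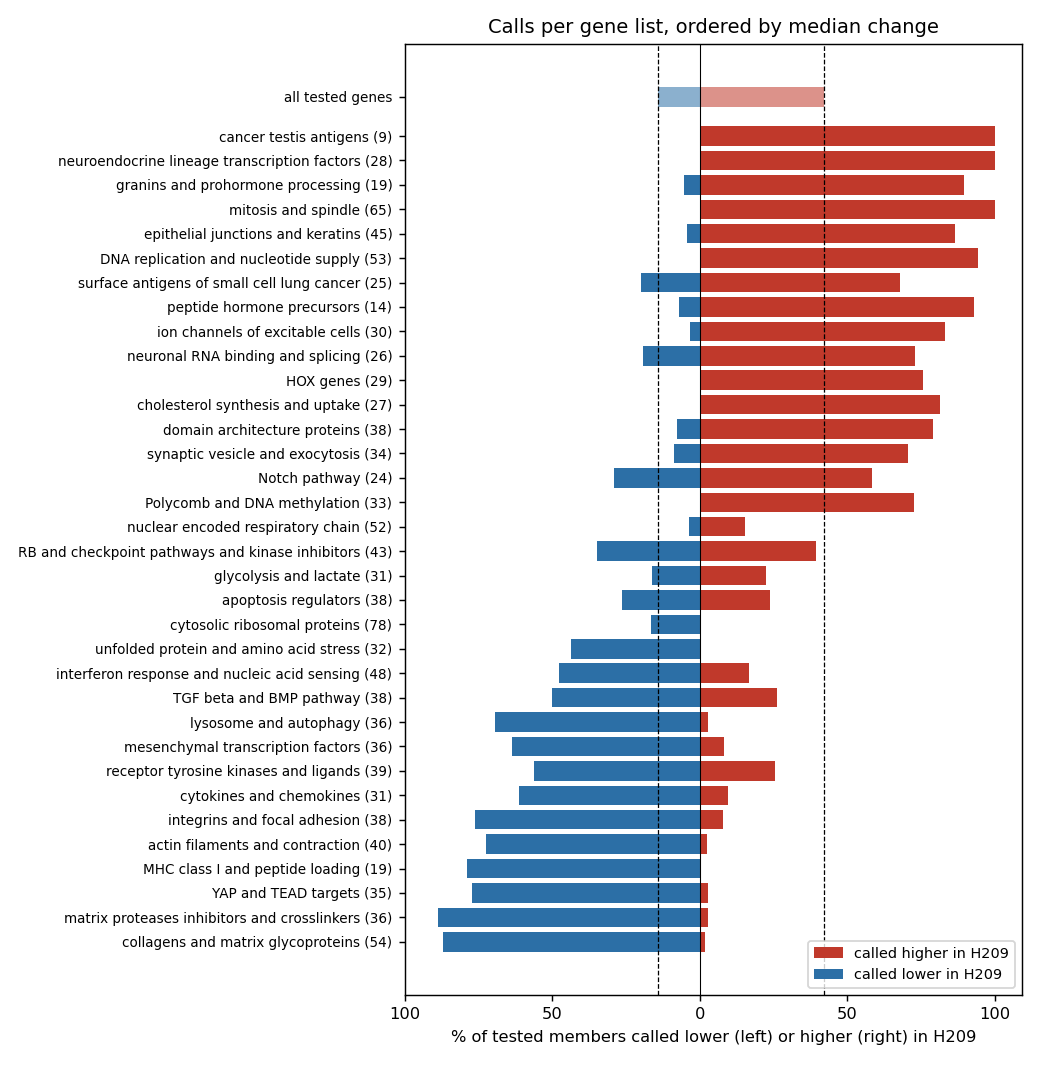
Share of tested members called higher (right) or lower (left) in H209 for each gene list with equal sums, ordered by median log2 fold change, with the number of tested members in brackets. The dashed lines and the pale bar on top mark all tested genes, at 42.2% higher and 14.3% lower.

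Transcription factors of the neuroendocrine and neural lineage were called higher in 28 of 28 tested members in both scalings (relative median 3.74, 24 below 1 FPKM throughout MRC5). INSM1, a zinc finger repressor that marks neuroendocrine cells, had 330.4 and 321 FPKM in H209, against 0 FPKM in all 3 MRC5 libraries. NEUROD1, a proneural factor used to divide these tumours into classes, had 72.1 and 87.2 FPKM in H209, against 0 FPKM in all 3 MRC5 libraries. Both factors were thus listed at 0 in MRC5. NKX2-1, the lineage factor of lung and thyroid epithelium, had 97.1 and 96.7 FPKM in H209, against 0 FPKM in all 3 MRC5 libraries. POU2F3, the factor of the tuft cell class of this tumour, had 0.22 and 0.321 FPKM in H209, against 0.0955, 0.109 and 0.0845 FPKM in MRC5 and was not tested. HES6, an antagonist of HES1, had 419 and 408 FPKM in H209, against 2.08, 3.38 and 2.12 FPKM in MRC5 (log2 fold change 6.90 ± 0.16 SE, adjusted p = 2.01e-07).

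The MYC family was split between the lines. MYCL, the family member often amplified in this tumour type, had 169 and 169 FPKM in H209, against no more than 0.0700 FPKM in MRC5 (log2 fold change 7.32 ± 0.074 SE, adjusted p = 2.94e-08). MYC itself had 0.159 and 0.0819 FPKM in H209, against 28.7, 29.8 and 29 FPKM in MRC5 (log2 fold change -4.75 ± 0.080 SE, adjusted p = 7.60e-08). MYCN, the neural member, had no more than 0.0215 FPKM in H209, against no more than 5.35e-05 FPKM in MRC5 and was not tested. MYCL made up at least 99.9% of the summed FPKM of MYCL and MYC in both H209 libraries, against 0.244%, 0.197% and 0.201% in MRC5. REST, the repressor that keeps neuronal genes off outside neurons, had 0.887 and 0.481 FPKM in H209, against 8.95, 6.34 and 7.43 FPKM in MRC5 (log2 fold change -2.35 ± 0.17 SE, adjusted p = 1.95e-05), and each MRC5 library stood far above both H209 libraries.

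Transcription factors of mesenchymal cells showed the reverse, with 23 of 36 called lower and 3 higher, or 30 and 1 with median ratios (relative median -2.29, 14 below 1 FPKM throughout H209). FOXF1, the forkhead factor of lung mesenchyme, had no more than 0.0333 FPKM in H209, against 103, 109.7 and 114 FPKM in MRC5 (log2 fold change -6.74 ± 0.074 SE, adjusted p = 3.58e-08). SNAI2, a repressor of E-cadherin in mesenchymal transition, had 0.101 and 0.0334 FPKM in H209, against 45.7, 43.6 and 45.7 FPKM in MRC5 (log2 fold change -5.43 ± 0.077 SE, adjusted p = 5.90e-08). FOSL1, an AP-1 subunit, had 0.234 and 0.337 FPKM in H209, against 66.8, 73.8 and 74.3 FPKM in MRC5 (log2 fold change -5.82). The nuclear receptor NR2F1 had no more than 0.0797 FPKM in H209, against 33.7, 36.6 and 37.5 FPKM in MRC5 (log2 fold change -5.11). These 4 were almost silent in H209. The members called higher were EBF1, an early B cell factor also active in mesenchyme, with 5.55 and 4.77 FPKM in H209, against 0.672, 0.537 and 0.417 FPKM in MRC5 (log2 fold change 2.00), KLF4 (log2 fold change 1.13) and JUN (log2 fold change 1.06). KLF4 and JUN were not called with median ratios.

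Dense-core vesicle genes were higher in H209. Of 19 tested granins and prohormone processing genes, 17 were called higher and 1 lower, or 16 and 1 with median ratios (relative median 3.60, 14 below 1 FPKM throughout MRC5). CHGA, chromogranin A and a core protein of these vesicles, had 406 and 382 FPKM in H209, against no more than 0.00445 FPKM in MRC5 (log2 fold change 8.62 ± 0.074 SE, adjusted p = 2.39e-08). CHGB, chromogranin B, had 102 and 109 FPKM in H209, against 0.0683, 0.103 and 0.171 FPKM in MRC5 (log2 fold change 6.58 ± 0.087 SE, adjusted p = 5.38e-08). SCG3, the secretogranin that anchors chromogranin to the membrane, had 112 and 106 FPKM in H209, against no more than 0.0163 FPKM in MRC5 (log2 fold change 6.77). PCSK1N, an inhibitor of a prohormone convertase, had 94.2 and 90.9 FPKM in H209, against 0.063, 0.211 and 0 FPKM in MRC5 (log2 fold change 6.43). Against the rest of its list, PAM, the enzyme that amidates peptide hormones, had 33.6 and 31.5 FPKM in H209, against 207, 199 and 200.0 FPKM in MRC5 (log2 fold change -2.60 ± 0.057 SE, adjusted p = 1.55e-07), so the MRC5 libraries held several times the H209 level.

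Of 29 peptide hormone precursors, 14 were tested, 13 were called higher and 1 lower (11 and 1 with median ratios), 11 were below 1 FPKM throughout MRC5, and 13 stayed under 1 FPKM in every library. GRP, the bombesin-like growth factor that this tumour type is known to secrete, had 185 and 183 FPKM in H209, against 0 FPKM in all 3 MRC5 libraries. ADCYAP1, the precursor of PACAP, had 114 and 117 FPKM in H209, against 0 FPKM in all 3 MRC5 libraries. CALCA, the gene of calcitonin and CGRP, had 44.1 and 40.4 FPKM in H209, against no more than 0.00872 FPKM in MRC5 (log2 fold change 5.43). NMU, neuromedin U, had 10.6 and 10 FPKM in H209, against no more than 0.00192 FPKM in MRC5 (log2 fold change 3.49). H209 thus made transcripts of several secreted peptides that were at or near 0 in MRC5. The exception was ADM, the vasodilator adrenomedullin, with 4.67 and 3.3 FPKM in H209, against 108, 105 and 107 FPKM in MRC5 (log2 fold change -4.45 ± 0.12 SE, adjusted p = 3.21e-07).

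Synaptic vesicle and exocytosis genes were called higher in 24 of 34 and lower in 3, or 21 and 4 with median ratios (relative median 1.09, 12 below 1 FPKM throughout MRC5). CPLX2, a complexin that clamps vesicle fusion, had 73.6 and 62 FPKM in H209, against 0.00171, 0.113 and 0.00045 FPKM in MRC5 (log2 fold change 6.05). SYP, the vesicle membrane protein synaptophysin, had 36.5 and 37.1 FPKM in H209, against 0.0417, 0.148 and 0.0694 FPKM in MRC5 (log2 fold change 5.12 ± 0.086 SE, adjusted p = 7.60e-08). SNAP25, a SNARE of synaptic vesicle fusion, had 72.2 and 78.5 FPKM in H209, against 2.18, 1.71 and 1.66 FPKM in MRC5 (log2 fold change 4.75 ± 0.11 SE, adjusted p = 1.68e-07). UNC13A, which primes vesicles, had 26.6 and 27.7 FPKM in H209, against 0.338, 0.117 and 0.0919 FPKM in MRC5 (log2 fold change 4.58). The 3 members called lower were SYPL1, a synaptophysin relative outside neurons (log2 fold change -2.24), RAB27B (log2 fold change -1.50) and RAB3B (log2 fold change -1.10).

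Ion channels of excitable cells were called higher in 25 of 30 and lower in 1, or 22 and 3 with median ratios (relative median 1.75, 18 below 1 FPKM throughout MRC5). KCNA1, a voltage-gated potassium channel, had 105 and 103 FPKM in H209, against no more than 0.00103 FPKM in MRC5 (log2 fold change 6.71 ± 0.076 SE, adjusted p = 3.82e-08). KCNH2, the hERG potassium channel, had 29.1 and 22.5 FPKM in H209, against 0.143, 0.0968 and 0.094 FPKM in MRC5 (log2 fold change 4.58). SCN3A, a neuronal sodium channel, had 40.3 and 37.6 FPKM in H209, against 1.02, 0.873 and 1.16 FPKM in MRC5 (log2 fold change 4.31 ± 0.10 SE, adjusted p = 1.66e-07). A second sodium channel went the other way, as SCN9A, known from pain-sensing neurons, had 0.201 and 0.149 FPKM in H209, against 30.5, 21 and 27.8 FPKM in MRC5 (log2 fold change -4.53 ± 0.16 SE, adjusted p = 9.04e-07). The 2 sodium channels thus each marked a different line.

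RNA-binding proteins of neurons and epithelia were called higher in 19 of 26 and lower in 5, or 16 and 6 with median ratios (relative median 1.62, 15 below 1 FPKM throughout MRC5). Another 3 were below 1 FPKM throughout H209. ELAVL3, a neuronal Hu protein that stabilises mRNAs, had 111 and 113 FPKM in H209, against no more than 0.0443 FPKM in MRC5 (log2 fold change 6.79 ± 0.078 SE, adjusted p = 3.83e-08). ELAVL4, the Hu antigen against which patients with this tumour can raise antibodies, had 40.8 and 42.9 FPKM in H209, against no more than 7.88e-05 FPKM in MRC5 (log2 fold change 5.42). ESRP1, the regulator of epithelial splicing, had 96.5 and 88.8 FPKM in H209, against no more than 0.000727 FPKM in MRC5 (log2 fold change 6.55 ± 0.082 SE, adjusted p = 4.87e-08). Members called lower included IGF2BP2, an oncofetal mRNA-binding protein, with 0.172 and 0.0628 FPKM in H209, against 61.6, 56.8 and 59.4 FPKM in MRC5 (log2 fold change -5.75 ± 0.083 SE, adjusted p = 6.17e-08). MBNL1, a muscleblind splicing factor, had 11.7 and 9.03 FPKM in H209, against 84.9, 63.5 and 78.6 FPKM in MRC5 (log2 fold change -2.76). ELAVL3 and ELAVL4 were thus near 0 in MRC5, while MBNL1 was present in both lines.

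The Notch pathway, in which ligands on one cell activate receptors on a neighbour and thereby restrain neuroendocrine fate, had members on both sides. Of 24 tested genes, 14 (58.3%) were called higher and 7 (29.2%) lower, beside 42.2% and 14.3% of all tested genes. With median ratios 13 were higher and 9 lower (relative median 0.86, 11 below 1 FPKM throughout MRC5). A further 2 were below 1 FPKM throughout H209. The inhibitory ligand DLL3, a surface target of therapy in this tumour, had 69.6 and 58.1 FPKM in H209, against 0.224, 0.175 and 0.17 FPKM in MRC5 (log2 fold change 5.76 ± 0.10 SE, adjusted p = 9.23e-08). The ligand JAG2 had 62.3 and 54.4 FPKM in H209, against 0.321, 0.700 and 0.583 FPKM in MRC5 (log2 fold change 5.28 ± 0.13 SE, adjusted p = 2.58e-07), and the non-canonical ligand DLK1 had 38.6 and 39.7 FPKM in H209, against 0.236, 0.0718 and 0.0965 FPKM in MRC5 (log2 fold change 5.15). Receptors called lower included NOTCH3, NOTCH2 and NOTCH1. NOTCH3 had 3.08 and 2.00 FPKM in H209, against 36.9, 41.6 and 42 FPKM in MRC5 (log2 fold change -3.55 ± 0.14 SE, adjusted p = 1.58e-06). NOTCH2 had 1.53 and 1.37 FPKM in H209, against 25.9, 21.3 and 24.9 FPKM in MRC5 (log2 fold change -3.35 ± 0.11 SE, adjusted p = 5.71e-07). NOTCH1 had 0.782 and 0.687 FPKM in H209, against 6.92, 6.62 and 6.99 FPKM in MRC5 (log2 fold change -2.18). The ligands JAG1 (log2 fold change -1.21) and DLL4 (log2 fold change -2.29), the target HES4 (log2 fold change -1.36) and the coactivator MAML2 (log2 fold change -2.92) were also called lower.

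Epithelial genes were called higher in 39 of 45 and lower in 2, or 38 and 4 with median ratios (relative median 3.05, 32 below 1 FPKM throughout MRC5). EPCAM, an adhesion molecule of epithelia, had 316 and 305 FPKM in H209, against 0.157, 0.11 and 0.0441 FPKM in MRC5 (log2 fold change 8.14 ± 0.082 SE, adjusted p = 2.94e-08). CDH1, E-cadherin, had 56.1 and 58.7 FPKM in H209, against no more than 0.0416 FPKM in MRC5 (log2 fold change 5.84 ± 0.080 SE, adjusted p = 5.62e-08). CDH2, N-cadherin, had 42.9 and 42.1 FPKM in H209, against 26.3, 22.5 and 24.3 FPKM in MRC5 (log2 fold change 0.78 ± 0.081 SE, adjusted p = 1.25e-04) and was not called, although the libraries of the lines did not overlap. H209 thus carried both cadherins, and MRC5 nearly N-cadherin alone. The 2 members called lower were CLDN1, a tight junction claudin, with 0.837 and 0.39 FPKM in H209, against 56.3, 48.1 and 55.8 FPKM in MRC5 (log2 fold change -5.09 ± 0.14 SE, adjusted p = 3.56e-07), and TJP1, the junction scaffold ZO-1, with 15.4 and 16.3 FPKM in H209, against 34.3, 29.9 and 34.7 FPKM in MRC5 (log2 fold change -1.01).

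Collagens and matrix glycoproteins were called lower in 47 of 54 and higher in 1, or 52 and 1 with median ratios, and had the lowest relative median of the 34 lists, -6.11, with 27 members below 1 FPKM throughout H209. Together they made up 0.0936% and 0.0944% of the summed FPKM in H209, against 3.32%, 3.23% and 3.35% in MRC5. COL1A1, a chain of type I collagen, had 1.06 and 0.692 FPKM in H209, against 1061, 1085 and 1154 FPKM in MRC5 (log2 fold change -9.20 ± 0.10 SE, adjusted p = 3.10e-08). COL1A2, its partner chain, had 1.29 and 1.83 FPKM in H209, against 1544, 1573 and 1567 FPKM in MRC5 (log2 fold change -9.26 ± 0.094 SE, adjusted p = 2.94e-08). COL6A3, a chain of the microfibril collagen VI, had 0.119 and 0.0444 FPKM in H209, against 852, 879 and 837 FPKM in MRC5 (log2 fold change -9.63 ± 0.061 SE, adjusted p = 2.25e-08). IGFBP7, a secreted IGF-binding protein, had 1.21 and 0.825 FPKM in H209, against 768, 682 and 779 FPKM in MRC5 (log2 fold change -8.53). The 3 MRC5 libraries were close together and far above H209 in each. FN1, fibronectin, carried a failed status for its deposited estimate in MRC5, and its level is not given. The 1 member called higher was SPARCL1, a relative of the matrix protein SPARC, with 4.43 and 4.34 FPKM in H209, against no more than 0.0293 FPKM in MRC5 (log2 fold change 2.40).

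Matrix proteases, their inhibitors and collagen crosslinkers were called lower in 32 of 36 in both scalings (relative median -4.02, 14 below 1 FPKM throughout H209). LOX, the oxidase that crosslinks collagen, had 0.266 and 0.124 FPKM in H209, against 268, 198 and 240.2 FPKM in MRC5 (log2 fold change -7.62 ± 0.14 SE, adjusted p = 9.29e-08). MMP2, a gelatinase, had 0.123 and 0.0104 FPKM in H209, against 188, 198 and 184 FPKM in MRC5 (log2 fold change -7.49 ± 0.077 SE, adjusted p = 3.01e-08). PLAU, the urokinase plasminogen activator, had 1.89 and 1.11 FPKM in H209, against 391, 367 and 367 FPKM in MRC5 (log2 fold change -7.25). The exception was the metalloprotease MMP11 with 9.19 and 9.39 FPKM in H209, against 3.87, 4.18 and 4.18 FPKM in MRC5 (log2 fold change 1.02), called higher with equal sums and not with median ratios. Integrins and focal adhesion genes were called lower in 29 of 38 and higher in 3, or 34 and 1 with median ratios (relative median -3.11, 10 below 1 FPKM throughout H209). CAV1, the coat protein of caveolae, had no more than 0.0582 FPKM in H209, against 267, 257 and 259.7 FPKM in MRC5 (log2 fold change -7.97 ± 0.060 SE, adjusted p = 2.39e-08). ITGA5, the fibronectin receptor subunit, had 0.642 and 0.822 FPKM in H209, against 133, 135 and 134 FPKM in MRC5 (log2 fold change -6.28 ± 0.071 SE, adjusted p = 3.82e-08). ITGA9, the integrin subunit that binds tenascin, had 7.95 and 7.65 FPKM in H209, against no more than 0.0231 FPKM in MRC5 (log2 fold change 3.13 ± 0.068 SE, adjusted p = 1.52e-07) and was the member called higher in both scalings. ITGA7, a laminin receptor subunit (log2 fold change 1.43), and PTK2, focal adhesion kinase (log2 fold change 1.42), were called higher with equal sums alone.

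Actin filament and contraction genes were called lower in 29 of 40 and higher in 1, or 36 and 0 with median ratios (relative median -3.44, 7 below 1 FPKM throughout H209). They held 0.572% and 0.582% of the summed FPKM in H209, against 2.69%, 2.79% and 2.67% in MRC5. TAGLN, the actin-bundling transgelin of smooth muscle, had 5.96 and 4.95 FPKM in H209, against 1124, 1279 and 1111 FPKM in MRC5 (log2 fold change -7.51 ± 0.10 SE, adjusted p = 5.19e-08). CALD1, caldesmon, had 0.204 and 0.157 FPKM in H209, against 288, 238 and 278 FPKM in MRC5 (log2 fold change -7.83 ± 0.10 SE, adjusted p = 4.49e-08). MYL9, a regulatory light chain of myosin, had 0 FPKM in both H209 libraries, against 273, 308 and 295 FPKM in MRC5. LGALS1, galectin 1, is a lectin rather than an actin or contraction protein, but is counted in this list and its share of the sum. It had 4.94 and 4.8 FPKM in H209, against 1755, 1932 and 1800.4 FPKM in MRC5 (log2 fold change -8.28). The 1 member called higher, MYH10, a nonmuscle myosin heavy chain that neurons also use, had 36.5 and 35.6 FPKM in H209, against 19.7, 14.2 and 14.1 FPKM in MRC5 (log2 fold change 1.14) and was not called with median ratios.

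Many contractile genes are controlled by serum response factor, which binds the CArG box. MYLK, the kinase of myosin light chain, had 2.56 and 2.14 FPKM in H209, against 173, 149 and 163 FPKM in MRC5 (log2 fold change -5.60 ± 0.093 SE, adjusted p = 7.43e-08). ACTG2, a smooth muscle actin, had 0.372 and 0.217 FPKM in H209, against 67.6, 71.1 and 76.4 FPKM in MRC5 (log2 fold change -5.81 ± 0.092 SE, adjusted p = 7.17e-08). Both were chosen after their values were seen, because their promoters hold a CArG box in the RefSeq table. Promoters are given for GRCh38.p14, from 250 bases before the gene start to 50 after it, MYLK at chr3:123620499-123620798 on the minus strand and ACTG2 at chr2:73892758-73893057 on the plus strand, with the CArG box in capitals, 94 bases before the start in MYLK and 110 and 73 bases before it in ACTG2.
MYLK: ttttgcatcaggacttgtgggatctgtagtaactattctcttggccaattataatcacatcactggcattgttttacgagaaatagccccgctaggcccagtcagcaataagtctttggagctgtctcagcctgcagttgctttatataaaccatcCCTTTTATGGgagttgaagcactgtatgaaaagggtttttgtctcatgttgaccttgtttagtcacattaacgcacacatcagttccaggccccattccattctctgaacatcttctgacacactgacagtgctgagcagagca
ACTG2: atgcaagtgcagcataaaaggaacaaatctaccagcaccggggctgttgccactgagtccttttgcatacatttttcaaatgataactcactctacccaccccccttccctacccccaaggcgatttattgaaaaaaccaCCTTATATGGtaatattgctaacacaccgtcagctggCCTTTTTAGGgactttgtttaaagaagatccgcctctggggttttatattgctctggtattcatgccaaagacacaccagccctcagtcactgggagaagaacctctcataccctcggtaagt
A search for the CArG box on both strands found it in 11 of 80 promoters (13.8%) of 36 matched list genes, against 454 of 35116 promoters of the table (1.29%). In this and the later searches, promoters at different starts of 1 gene were counted separately. They can overlap and share a match, as at FHL2. A match describes the letters of the window and not binding.

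The YAP and TEAD pathway, which couples cell spreading to growth, was called lower in 27 of 35 and higher in 1, or 31 and 0 with median ratios (relative median -3.98, 18 below 1 FPKM throughout H209). The coactivator YAP1 had no more than 0.0245 FPKM in H209, against 58.3, 44.1 and 54.5 FPKM in MRC5 (log2 fold change -5.70 ± 0.13 SE, adjusted p = 1.74e-07). CTGF, a secreted matricellular protein and a standard target of YAP, had no more than 0.0973 FPKM in H209, against 651, 624 and 657 FPKM in MRC5 (log2 fold change -9.25 ± 0.063 SE, adjusted p = 2.25e-08). NT5E, the ectonucleotidase CD73, had no more than 0.0703 FPKM in H209, against 297, 274 and 305 FPKM in MRC5 (log2 fold change -8.11). CRIM1, a membrane protein that binds BMP, had no more than 0.0177 FPKM in H209, against 229.5, 190.2 and 212 FPKM in MRC5 (log2 fold change -7.71). The coactivator and these targets were thus all close to 0 in H209. AMOTL1, an angiomotin-like protein that binds YAP, was the exception with 20.5 and 20.7 FPKM in H209, against 10.4, 7.53 and 8.85 FPKM in MRC5 (log2 fold change 1.13) and was not called with median ratios.

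TEAD factors bind GGAATG. This motif was searched on both strands and lay in 12 of 35 promoters (34.3%) of 26 matched list genes, against 4928 of 35116 promoters (14.0%). CTGF, listed as CCN2 in RefSeq, lies at chr6:131951323-131951622 on the minus strand and holds GGAATG 169, 104 and 95 bases before the start. ANKRD1, an ankyrin repeat protein and YAP target chosen after its values were seen, lies at chr10:90921038-90921337 on the minus strand with matches 220 and 128 bases before the start. The 2 promoters are printed with GGAATG in capitals because they are classic targets (RefSeq, GRCh38.p14).
CCN2: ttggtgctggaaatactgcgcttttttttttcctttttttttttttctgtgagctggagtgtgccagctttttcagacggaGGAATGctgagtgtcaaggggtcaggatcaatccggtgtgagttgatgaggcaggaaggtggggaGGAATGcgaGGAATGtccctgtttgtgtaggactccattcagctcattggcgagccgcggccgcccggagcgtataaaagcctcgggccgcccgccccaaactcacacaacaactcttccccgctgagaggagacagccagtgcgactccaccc
ANKRD1: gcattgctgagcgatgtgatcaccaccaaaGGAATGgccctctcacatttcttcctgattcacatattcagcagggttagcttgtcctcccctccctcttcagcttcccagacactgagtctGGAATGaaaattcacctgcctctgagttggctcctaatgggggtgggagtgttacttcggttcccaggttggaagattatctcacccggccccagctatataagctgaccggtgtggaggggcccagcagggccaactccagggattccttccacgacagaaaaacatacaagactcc
ANKRD1 had 0.315 and 0.205 FPKM in H209, against 5.87, 5.33 and 5.5 FPKM in MRC5 (log2 fold change -2.38 ± 0.086 SE, adjusted p = 9.71e-07), with every MRC5 library above both H209 libraries.

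The TGF-beta and BMP pathway had 19 of 38 (50%) called lower and 10 (26.3%) higher, beside 14.3% and 42.2% of all tested genes. With median ratios 21 were lower and 6 higher (relative median -1.65, 10 below 1 FPKM throughout H209). Another 4 were below 1 FPKM throughout MRC5. TGFBI, a matrix protein induced by TGF-beta, had 3.01 and 2.81 FPKM in H209, against 455, 444 and 448 FPKM in MRC5 (log2 fold change -6.85 ± 0.055 SE, adjusted p = 2.39e-08). FST, the activin antagonist follistatin, had 0.14 and 0.351 FPKM in H209, against 328, 296 and 286 FPKM in MRC5 (log2 fold change -7.93 ± 0.10 SE, adjusted p = 4.99e-08). LTBP1, which stores latent TGF-beta in the matrix, had 0.222 and 0.0632 FPKM in H209, against 175, 171 and 177 FPKM in MRC5 (log2 fold change -7.27). Among members called higher, ID1, an inhibitor of basic helix-loop-helix factors, had 176 and 145 FPKM in H209, against 12.6, 15 and 14.9 FPKM in MRC5 (log2 fold change 3.41 ± 0.12 SE, adjusted p = 7.39e-07). ID2, its relative, had 253 and 216 FPKM in H209, against 36.1, 41 and 37.6 FPKM in MRC5 (log2 fold change 2.58). BMP8B, a BMP ligand, had 19.1 and 19.1 FPKM in H209, against no more than 0.0921 FPKM in MRC5 (log2 fold change 4.26). SMAD9, a BMP effector, had 31 and 31.6 FPKM in H209, against 4.46, 3.09 and 4.13 FPKM in MRC5 (log2 fold change 2.73). SMAD1, SMAD4, BAMBI and BMP6 were called higher with equal sums and not with median ratios.

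Receptor tyrosine kinases and their ligands were called lower in 22 of 39 and higher in 10, or 26 and 8 with median ratios (relative median -2.37, 16 below 1 FPKM throughout H209). A further 5 were below 1 FPKM throughout MRC5. PDGFRB, a receptor of mesenchymal cells for PDGF, had no more than 0.0101 FPKM in H209, against 98, 80.6 and 89.3 FPKM in MRC5 (log2 fold change -6.48 ± 0.10 SE, adjusted p = 6.60e-08). HGF, the ligand of MET, had 0.212 and 0.0607 FPKM in H209, against 111, 72.6 and 103 FPKM in MRC5 (log2 fold change -6.39 ± 0.19 SE, adjusted p = 4.38e-07). FGF7, a fibroblast factor that acts on epithelium, had 0.131 and 0.243 FPKM in H209, against 82.8, 77.8 and 95.9 FPKM in MRC5 (log2 fold change -6.18). AXL had no more than 0.0264 FPKM in H209, against 84.5, 78.3 and 81.7 FPKM in MRC5 (log2 fold change -6.33). On the H209 side ERBB3, a neuregulin receptor, had 30.6 and 31.7 FPKM in H209, against 0.311, 0.426 and 0.169 FPKM in MRC5 (log2 fold change 4.63 ± 0.11 SE, adjusted p = 1.97e-07). INSR, the insulin receptor, had 12.8 and 12.7 FPKM in H209, against 1.77, 1.57 and 1.95 FPKM in MRC5 (log2 fold change 2.32). KIT, the stem cell factor receptor, had 19.2 and 19 FPKM in H209, against 7.15, 5.7 and 6.9 FPKM in MRC5 (log2 fold change 1.41) and was not called with median ratios.

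Of 25 surface antigens of interest in small cell lung cancer, 17 were called higher and 5 lower, or 15 and 5 with median ratios (relative median 2.17, 11 below 1 FPKM throughout MRC5). Another 2 were below 1 FPKM throughout H209. NCAM1, the adhesion molecule CD56, had 96.2 and 85.3 FPKM in H209, against no more than 0.000123 FPKM in MRC5 (log2 fold change 6.52 ± 0.089 SE, adjusted p = 5.62e-08). PROM1, the stem cell antigen CD133, had 59.2 and 53.3 FPKM in H209, against no more than 0.026 FPKM in MRC5 (log2 fold change 5.82 ± 0.087 SE, adjusted p = 6.43e-08). Ligands of immune checkpoints were among the members called lower. CD274, known as PD-L1, had 0.748 and 0.337 FPKM in H209, against 7.29, 6.54 and 7.44 FPKM in MRC5 (log2 fold change -2.40 ± 0.14 SE, adjusted p = 6.48e-06). PDCD1LG2, known as PD-L2, had no more than 0.0117 FPKM in H209, against 19.1, 16.9 and 18.3 FPKM in MRC5 (log2 fold change -4.24 ± 0.088 SE, adjusted p = 1.36e-07). PVR, the poliovirus receptor that binds TIGIT, had 23.7 and 21.9 FPKM in H209, against 99.3, 96.3 and 102 FPKM in MRC5 (log2 fold change -2.07). PVRL2, its relative, had 17.3 and 16.5 FPKM in H209, against 56.3, 65.7 and 63.5 FPKM in MRC5 (log2 fold change -1.80). CADM1, an adhesion molecule, had 58.4 and 53 FPKM in H209, against 140.0, 127 and 129 FPKM in MRC5 (log2 fold change -1.23).

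Antigen presentation genes of MHC class I were called lower in 15 of 19 and higher in 0, or 17 and 0 with median ratios (relative median -3.44, 6 below 1 FPKM throughout H209). HLA-E, the nonclassical ligand of NKG2A, had 0.897 and 0.437 FPKM in H209, against 157, 157 and 155 FPKM in MRC5 (log2 fold change -6.57 ± 0.12 SE, adjusted p = 9.59e-08). MICA, a ligand of the activating receptor NKG2D, had no more than 0.0492 FPKM in H209, against 36, 40.1 and 38.3 FPKM in MRC5 (log2 fold change -5.25 ± 0.084 SE, adjusted p = 7.30e-08). HLA genes are alike in sequence, so the split of reads among them is uncertain. The list held 0.228% and 0.227% of the summed FPKM in H209, against 1.04%, 1.06% and 1.04% in MRC5.

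Interferon response and nucleic acid sensing genes were called lower in 23 of 48 and higher in 8, or 26 and 2 with median ratios (relative median -1.60, 15 below 1 FPKM throughout H209). A further 3 were below 1 FPKM throughout MRC5. IFITM2, a membrane protein that blocks virus entry, had 1.01 and 1.58 FPKM in H209, against 160.2, 184 and 178 FPKM in MRC5 (log2 fold change -6.26 ± 0.12 SE, adjusted p = 1.14e-07). IFI16, a DNA sensor, had 0.165 and 0.122 FPKM in H209, against 68.1, 67.7 and 68.5 FPKM in MRC5 (log2 fold change -5.92 ± 0.068 SE, adjusted p = 3.83e-08). TRIM22, an antiviral ubiquitin ligase, had no more than 0.0364 FPKM in H209, against 72.1, 57 and 65.4 FPKM in MRC5 (log2 fold change -6.001). A few antiviral genes stood out on the H209 side, among them MX2, an antiviral GTPase, with 16 and 18.3 FPKM in H209, against 0.281, 0.25 and 0.196 FPKM in MRC5 (log2 fold change 3.87 ± 0.092 SE, adjusted p = 2.06e-07), and ISG20, an exonuclease, with 4.31 and 4.02 FPKM in H209, against 0.361, 0.394 and 0.393 FPKM in MRC5 (log2 fold change 1.90). MX1 (log2 fold change 1.49), IRF7 (log2 fold change 1.49), OAS3 (log2 fold change 1.37), SAMHD1 (log2 fold change 1.19), TYK2 (log2 fold change 1.61) and MAVS (log2 fold change 1.01) were called higher with equal sums and not with median ratios.

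Cytokines, chemokines and their receptors were called lower in 19 of 31 and higher in 3, or 23 and 2 with median ratios (relative median -2.87, 14 below 1 FPKM throughout H209). Another 4 were below 1 FPKM throughout MRC5. PTX3, a secreted pattern recognition protein, had 0.248 and 0.25 FPKM in H209, against 259, 234 and 242 FPKM in MRC5 (log2 fold change -7.62 ± 0.069 SE, adjusted p = 2.39e-08). OSMR, the oncostatin M receptor, had no more than 0.0422 FPKM in H209, against 97.9, 79.1 and 95.3 FPKM in MRC5 (log2 fold change -6.46 ± 0.11 SE, adjusted p = 7.62e-08). TNFRSF11B, osteoprotegerin, had no more than 0.0143 FPKM in H209, against 175, 153 and 162 FPKM in MRC5 (log2 fold change -7.35). VCAM1 had no more than 0.0335 FPKM in H209, against 35.7, 31.1 and 34.6 FPKM in MRC5 (log2 fold change -5.09). Called higher were the chemokine CXCL1 with 3.33 and 2.84 FPKM in H209, against 0.209, 0.0641 and 0 FPKM in MRC5 (log2 fold change 1.91), the death ligand TNFSF10 with 1.64 and 2.01 FPKM in H209, against no more than 0.0506 FPKM in MRC5 (log2 fold change 1.46) and TNFAIP2 (log2 fold change 1.68), the last with equal sums alone.

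Of 43 RB, checkpoint and cyclin-dependent kinase genes, 17 (39.5%) were called higher and 15 (34.9%) lower, beside 42.2% and 14.3% of all tested genes. The higher share was thus near that of all tested genes, and the lower share was above it. With median ratios 12 were called higher and 18 lower (relative median -0.56), beside 25.3% and 23.9% of all tested genes. Of the 43, 4 were below 1 FPKM throughout MRC5 and 5 throughout H209. RB1 RNA had 27.4 and 24.8 FPKM in H209, against 12.9, 9.57 and 12.5 FPKM in MRC5 (log2 fold change 1.10 ± 0.14 SE, adjusted p = 3.08e-04) and was called higher with equal sums and not with median ratios. Gene tables do not show mutations, and an RNA level does not report whether the protein is made. CDKN2A, the gene of p16 and ARF, had 145 and 139 FPKM in H209, against 15.5, 20 and 17 FPKM in MRC5 (log2 fold change 2.95 ± 0.11 SE, adjusted p = 9.86e-07). CDKN2C, the related inhibitor p18, had 61 and 63.3 FPKM in H209, against 0.459, 0.681 and 0.325 FPKM in MRC5 (log2 fold change 5.41 ± 0.12 SE, adjusted p = 1.60e-07). E2F1, a factor held back by RB, had 58.4 and 64.6 FPKM in H209, against 1.73, 1.85 and 1.74 FPKM in MRC5 (log2 fold change 4.49). Cyclin D1, CCND1, was nearly absent from H209 with 0.76 and 0.625 FPKM in H209, against 347, 343 and 384 FPKM in MRC5 (log2 fold change -7.73 ± 0.078 SE, adjusted p = 2.94e-08).

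Genes induced by DNA damage and other stress were among the members called lower. CDKN1A, the inhibitor p21, had 71.8 and 61.3 FPKM in H209, against 717, 726 and 733 FPKM in MRC5 (log2 fold change -3.43 ± 0.075 SE, adjusted p = 1.52e-07). GDF15, a secreted stress cytokine, had 6.66 and 5.98 FPKM in H209, against 238, 321 and 285 FPKM in MRC5 (log2 fold change -5.26). The death receptors TNFRSF10B (log2 fold change -6.77) and FAS (log2 fold change -5.40), the kinase PLK2 (log2 fold change -5.28), PHLDA3 (log2 fold change -4.33), ZMAT3 (log2 fold change -2.70), GADD45A (log2 fold change -2.69) and SESN2 (log2 fold change -2.60) were called lower too. Apoptosis regulators, which overlap with these, were called higher in 9 of 38 (23.7%) and lower in 10 (26.3%), beside 42.2% and 14.3% of all tested genes. With median ratios 7 were higher and 14 lower (relative median -0.93). Of the 38, 5 were below 1 FPKM throughout MRC5 and 5 throughout H209. BCL2, the survival protein targeted by venetoclax, had 21.3 and 17.6 FPKM in H209, against 0.555, 0.354 and 0.846 FPKM in MRC5 (log2 fold change 3.69 ± 0.16 SE, adjusted p = 1.86e-06). BCL2L11, the killer protein BIM that it restrains, had 18.4 and 17.6 FPKM in H209, against 0.698, 0.486 and 0.649 FPKM in MRC5 (log2 fold change 3.56 ± 0.095 SE, adjusted p = 3.01e-07). CASP1, the inflammatory caspase, had no more than 0.0767 FPKM in H209, against 50.7, 51.9 and 50.9 FPKM in MRC5 (log2 fold change -5.65). CASP4, its relative, had 11.6 and 11.7 FPKM in H209, against 204, 222 and 215 FPKM in MRC5 (log2 fold change -4.08).

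Mitosis and spindle genes were called higher in 65 of 65, or 63 with median ratios, with 0 lower in either (relative median 3.11, 14 below 1 FPKM throughout MRC5). They made up 0.657% and 0.646% of the summed FPKM in H209, against 0.0411%, 0.0400% and 0.0404% in MRC5. MKI67, the proliferation antigen, had 58.6 and 52 FPKM in H209, against 1.07, 0.800 and 0.849 FPKM in MRC5 (log2 fold change 4.88 ± 0.10 SE, adjusted p = 1.44e-07). KIFC1, a kinesin that clusters centrosomes, had 80.7 and 92.8 FPKM in H209, against 0.891, 0.914 and 0.726 FPKM in MRC5 (log2 fold change 5.57 ± 0.10 SE, adjusted p = 9.15e-08). NDC80, a kinetochore protein, had 67.7 and 68.4 FPKM in H209, against 1.14, 1.03 and 0.934 FPKM in MRC5 (log2 fold change 5.09). The state of growth of the cultures is not given, and its part in these differences was not tested. DNA replication and nucleotide supply genes were called higher in 50 of 53, or 46, with 0 lower (relative median 2.44, 9 below 1 FPKM throughout MRC5), and took 0.669% and 0.662% of the sum in H209, against 0.0682%, 0.0682% and 0.0677% in MRC5. TYMS, thymidylate synthase, had 519 and 530.0 FPKM in H209, against 20, 18.5 and 20.7 FPKM in MRC5 (log2 fold change 4.66 ± 0.065 SE, adjusted p = 5.84e-08). GINS2, a subunit of the replicative helicase, had 68.3 and 71.2 FPKM in H209, against 0.634, 0.72 and 0.807 FPKM in MRC5 (log2 fold change 5.36 ± 0.085 SE, adjusted p = 7.26e-08). CLSPN, the checkpoint adaptor claspin, had 58.8 and 52.1 FPKM in H209, against 0.484, 0.601 and 0.513 FPKM in MRC5 (log2 fold change 5.20).

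Many mitosis genes share a promoter element, the cell cycle homology region, read as TTTGAA or TTCGAA and bound by the DREAM complex and MuvB. TTTGAA was found on either strand in 44 of 65 promoters (67.7%) of 55 matched list genes, against 5324 of 35116 promoters (15.2%). Overlapping promoters of 1 gene, such as those of CDC25C and of ZWINT, counted the same match again. TTCGAA was found in 3 (4.62%), against 508 (1.45%), and at least 1 of both in 46 (70.8%), against 5742 (16.4%). The promoters of CCNB2 (chr15:59104896-59105195 on the plus strand), PLK1 (chr16:23678639-23678938 on the plus strand) and CDCA8 (chr1:37692266-37692565 on the plus strand) are shown because the element sits close to the start in each, 29, 29 and 23 bases before it, with TTTGAA in capitals (RefSeq, GRCh38.p14).
CCNB2: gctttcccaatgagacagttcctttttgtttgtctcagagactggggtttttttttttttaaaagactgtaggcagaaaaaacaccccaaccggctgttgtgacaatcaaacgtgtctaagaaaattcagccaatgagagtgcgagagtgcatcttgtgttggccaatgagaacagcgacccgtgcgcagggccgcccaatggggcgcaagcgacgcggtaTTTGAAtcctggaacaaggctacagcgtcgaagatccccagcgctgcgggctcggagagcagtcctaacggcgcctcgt
PLK1: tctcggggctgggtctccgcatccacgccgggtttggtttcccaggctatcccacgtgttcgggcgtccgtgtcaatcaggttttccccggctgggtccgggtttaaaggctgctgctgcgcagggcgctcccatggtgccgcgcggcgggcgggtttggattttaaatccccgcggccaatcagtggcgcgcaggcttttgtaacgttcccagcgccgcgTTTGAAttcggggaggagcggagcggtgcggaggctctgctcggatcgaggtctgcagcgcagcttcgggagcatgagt
CDCA8: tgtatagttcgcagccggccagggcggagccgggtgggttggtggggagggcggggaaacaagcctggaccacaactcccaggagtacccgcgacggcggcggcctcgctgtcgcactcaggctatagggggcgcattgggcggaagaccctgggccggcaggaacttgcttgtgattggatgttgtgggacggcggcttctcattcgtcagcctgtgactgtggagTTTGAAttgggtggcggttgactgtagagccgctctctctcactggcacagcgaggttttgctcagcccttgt
CDCA8, the borealin subunit of the chromosomal passenger complex, had 73.6 and 71.3 FPKM in H209, against 0.817, 0.916 and 0.944 FPKM in MRC5 (log2 fold change 5.28 ± 0.079 SE, adjusted p = 6.57e-08). CCNB2, a B cyclin, had 76.8 and 77.2 FPKM in H209, against 1.96, 2.54 and 2.31 FPKM in MRC5 (log2 fold change 4.58). PLK1, a kinase of mitotic entry, had 54 and 54.7 FPKM in H209, against 1.45, 2.51 and 1.52 FPKM in MRC5 (log2 fold change 4.31). CCNB2 and PLK1 were chosen after their values were seen.

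Cytosolic ribosomal protein genes were mostly not called with equal sums, at 65 of 78, with 13 lower and 0 higher, but mostly lower with median ratios, at 55, with 0 higher (relative median -1.23). They took 9.22% and 10.2% of the summed FPKM in H209, against 13.3%, 14.4% and 13.2% in MRC5. RPL29 had 164 and 183 FPKM in H209, against 638, 675 and 634 FPKM in MRC5 (log2 fold change -1.90 ± 0.065 SE, adjusted p = 7.58e-07). RPL23 had 266 and 312 FPKM in H209, against 1032, 1127 and 975 FPKM in MRC5 (log2 fold change -1.85). Near-identical pseudogenes could take reads from these genes, so single members are uncertain.

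In energy metabolism 8 of 52 nuclear genes of the respiratory chain (15.4%) were called higher and 2 (3.85%) lower with equal sums. Those shares stand beside 42.2% and 14.3% of all tested genes. Median ratios, a scaling that lowers all genes together, gave 0 higher and 12 lower (relative median -0.45). Of the 52, 1 was below 1 FPKM throughout H209. NDUFS4, a complex I subunit, had 19.8 and 20 FPKM in H209, against 63.4, 60 and 59.6 FPKM in MRC5 (log2 fold change -1.57 ± 0.060 SE, adjusted p = 1.23e-06). COX7A1, the muscle form of a complex IV subunit, had 0.849 and 0.569 FPKM in H209, against 5.86, 7.85 and 8.64 FPKM in MRC5 (log2 fold change -2.30). Glycolysis genes likewise had 7 of 31 (22.6%) higher and 5 (16.1%) lower, but 3 and 14 with median ratios (relative median -0.71). Of the 31, 3 were below 1 FPKM throughout MRC5 and 1 throughout H209. Glucose and lactate carriers stood on the MRC5 side. SLC2A3, the glucose carrier GLUT3, had no more than 0.0879 FPKM in H209, against 47.8, 46.2 and 48.4 FPKM in MRC5 (log2 fold change -5.53 ± 0.078 SE, adjusted p = 5.84e-08). SLC2A1, the carrier GLUT1, had 40.2 and 34.1 FPKM in H209, against 169.6, 163 and 166 FPKM in MRC5 (log2 fold change -2.14 ± 0.079 SE, adjusted p = 1.07e-06). SLC16A3, a lactate exporter, had 16.4 and 11.2 FPKM in H209, against 96, 92.5 and 96.6 FPKM in MRC5 (log2 fold change -2.72). PFKFB2, a regulator of phosphofructokinase, had 28.8 and 33.2 FPKM in H209, against 0.486, 0.409 and 0.938 FPKM in MRC5 (log2 fold change 4.32 ± 0.16 SE, adjusted p = 1.04e-06) and was higher in both H209 libraries.

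Cholesterol synthesis and uptake genes were called higher in 22 of 27, or 20 with median ratios, with 0 lower (relative median 1.39, 1 below 1 FPKM throughout MRC5). They took 0.358% and 0.345% of the summed FPKM in H209, against 0.0678%, 0.0658% and 0.0689% in MRC5. HMGCS1, an early enzyme of the mevalonate pathway, had 187 and 173 FPKM in H209, against 7.54, 6.01 and 6.76 FPKM in MRC5 (log2 fold change 4.55 ± 0.10 SE, adjusted p = 1.53e-07). INSIG1, the sterol sensor that retains SREBP, had 141 and 129.8 FPKM in H209, against 6.15, 5.99 and 6.28 FPKM in MRC5 (log2 fold change 4.26 ± 0.070 SE, adjusted p = 7.43e-08). EBP, an isomerase that acts late in the pathway, had a log2 fold change of 3.21. Lysosome and autophagy genes were called lower in 25 of 36 and higher in 1, or 31 and 0 with median ratios (relative median -2.08). CTSC, a cathepsin that activates serine proteases, had 2.61 and 1.69 FPKM in H209, against 514, 489 and 517 FPKM in MRC5 (log2 fold change -7.35 ± 0.13 SE, adjusted p = 7.89e-08). CTSB, cathepsin B, had 61.8 and 53.4 FPKM in H209, against 912, 877 and 898 FPKM in MRC5 (log2 fold change -3.94 ± 0.072 SE, adjusted p = 9.47e-08). TFEB, the master regulator of lysosomal genes, had 7.76 and 8.11 FPKM in H209, against 2.49, 2.73 and 2.33 FPKM in MRC5 (log2 fold change 1.35), called higher with equal sums and not with median ratios. The list took 0.248% and 0.236% of the sum in H209, against 1.11%, 1.1% and 1.09% in MRC5.

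Genes of the unfolded protein and amino acid stress response were called lower in 14 of 32 and higher in 0, or 19 and 0 with median ratios (relative median -1.25). SLC7A11, the cystine carrier, had 8.76 and 6.65 FPKM in H209, against 95.9, 56.5 and 85.9 FPKM in MRC5 (log2 fold change -3.18 ± 0.24 SE, adjusted p = 2.41e-05). CHAC1, a glutathione-degrading enzyme induced by ATF4, had 13.4 and 10.3 FPKM in H209, against 76.7, 82.4 and 86.2 FPKM in MRC5 (log2 fold change -2.70). NUPR1, a stress-induced chromatin protein, had 22.7 and 20.4 FPKM in H209, against 176, 197 and 182 FPKM in MRC5 (log2 fold change -3.05). ATF4, the factor that drives this response, was not called and had 413 and 408 FPKM in H209, against 385, 394 and 376 FPKM in MRC5 (log2 fold change 0.093 ± 0.048 SE, adjusted p = 0.108). It was named after its values were seen.

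Polycomb and DNA methylation genes were called higher in 24 of 33, or 13 with median ratios, with 0 lower (relative median 0.83, 3 below 1 FPKM throughout MRC5). EZH2, the methyltransferase of Polycomb complex 2, had 65.4 and 60.2 FPKM in H209, against 2.09, 1.99 and 1.72 FPKM in MRC5 (log2 fold change 4.45 ± 0.092 SE, adjusted p = 1.33e-07). CBX2, a reader subunit of Polycomb complex 1, had 27 and 26.9 FPKM in H209, against 0.582, 0.835 and 0.634 FPKM in MRC5 (log2 fold change 4.06 ± 0.10 SE, adjusted p = 2.08e-07). UHRF1, which brings DNMT1 to replicated DNA, had 36.7 and 36.9 FPKM in H209, against 3.24, 2.95 and 3.29 FPKM in MRC5 (log2 fold change 3.19), and the helicase HELLS had 36.3 and 29 FPKM in H209, against 2.00, 1.44 and 1.75 FPKM in MRC5 (log2 fold change 3.62). Proteins of chromosome architecture, the subject of the Hi-C arm of the study, were called higher in 30 of 38 and lower in 3, or 22 and 4 with median ratios (relative median 1.31, 3 below 1 FPKM throughout MRC5). CTCF, the insulator protein, had 35.3 and 35.9 FPKM in H209, against 9.96, 9.02 and 9.63 FPKM in MRC5 (log2 fold change 1.80 ± 0.072 SE, adjusted p = 1.48e-06). RAD21, a cohesin subunit, had 191 and 178 FPKM in H209, against 40, 33.7 and 36.7 FPKM in MRC5 (log2 fold change 2.30 ± 0.085 SE, adjusted p = 1.04e-06). CTCF and RAD21 were named after their values were seen. HMGA2, an architectural protein of fetal and mesenchymal cells, had no more than 0.0308 FPKM in H209, against 65, 54.8 and 63.1 FPKM in MRC5 (log2 fold change -5.92 ± 0.10 SE, adjusted p = 7.43e-08) and was almost confined to the MRC5 libraries. HMGB2 went the other way with 426 and 475 FPKM in H209, against 26.5, 26.7 and 23.1 FPKM in MRC5 (log2 fold change 4.10).

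HOX genes, which keep a record of position along the body axis, were called higher in 22 of 29 tested members of 39, or 20 with median ratios, and lower in 0 and 2 (relative median 1.51, 17 below 1 FPKM throughout MRC5). All 8 tested HOXD genes were under 0.1 FPKM in every MRC5 library and passed the filter through H209 alone, so a higher call was the only one open to them. HOXD8 had 44.6 and 40.8 FPKM in H209, against no more than 0.0672 FPKM in MRC5 (log2 fold change 5.42 ± 0.088 SE, adjusted p = 7.41e-08), HOXD10 had 40 and 37.4 FPKM in H209, against no more than 0.00218 FPKM in MRC5 (log2 fold change 5.31). HOXD9 had 17.7 and 17.3 FPKM in H209, against 0 FPKM in all 3 MRC5 libraries. HOXA10 had 21 and 22.1 FPKM in H209, against no more than 0.0968 FPKM in MRC5 (log2 fold change 4.41 ± 0.080 SE, adjusted p = 9.46e-08). HOXA9 had 22 and 21.3 FPKM in H209, against 0.0673, 0 and 0.161 FPKM in MRC5 (log2 fold change 4.40). HOXA5, which patterns the lung, was close in both lines with 5.39 and 7.68 FPKM in H209, against 3.93, 4.68 and 5.1 FPKM in MRC5 (log2 fold change 0.42 ± 0.16 SE, adjusted p = 0.0454) and was not called. HOXB6 had 8.73 and 10.2 FPKM in H209, against 13.2, 15.3 and 14.9 FPKM in MRC5 (log2 fold change -0.57) and was called lower with median ratios alone. HOXD9, HOXA5 and HOXB6 were named after their values were seen.

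**Figure D4:**
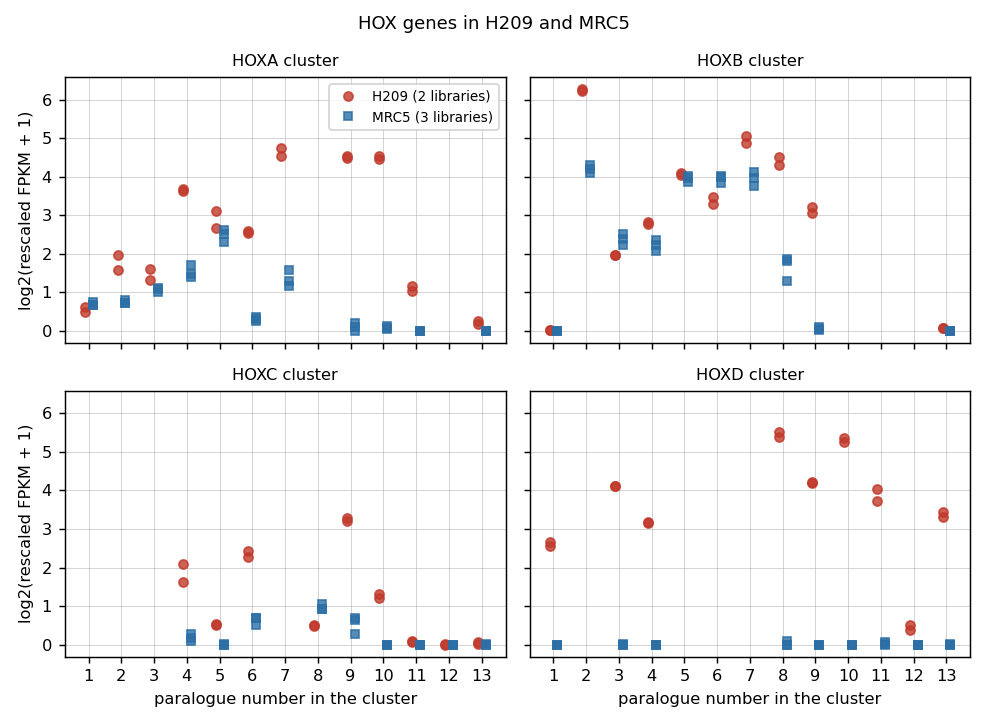
Rescaled levels of the 39 HOX genes, tested or not, as log2(FPKM + 1) by cluster and paralogue number, with circles for the 2 H209 libraries and squares for the 3 MRC5 libraries. In the HOXD panel all circles lie above squares at or near 0, while in the HOXB panel genes 3 to 6 lie close together in both lines.

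Of 26 cancer testis antigens, genes silent in most adult tissue outside the germ line, 9 were tested. All 9 were below 1 FPKM throughout MRC5 and passed the filter through H209 alone, so their calls, all higher in both scalings, were fixed in direction, and 16 others stayed under 1 FPKM in every library. PRAME had 161 and 161 FPKM in H209, against 0 FPKM in all 3 MRC5 libraries. MAGEA1 had 28.8 and 32.8 FPKM in H209, against 0 FPKM in all 3 MRC5 libraries. MAGEA3 had 40.7 and 42.6 FPKM in H209, against no more than 0.0334 FPKM in MRC5 (log2 fold change 5.39). MAGEA6 had 40 and 42.4 FPKM in H209, against no more than 0.0101 FPKM in MRC5 (log2 fold change 5.39). MAGEA3 and MAGEA6 are near-identical copies, so reads could be split evenly between them by the counting. None of the 9 reached 0.1 FPKM in an MRC5 library.

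Pairs of related genes were compared in 33 families. In many of them, though not in all, one member is typical of neurons, epithelia or dividing cells and the other is widespread or mesenchymal. In 11 pairs the first member was called higher in H209 and the second lower with equal sums, beside 42.2% and 14.3% of all tested genes. With median ratios RAB3A lost its call, and the other pairs of this kind kept both. TAGLN3, MYCL, FGFR3, GNG4, GNAO1 and TMSB15A averaged at most 0.523 FPKM in MRC5, and their partners MYC and GNG11 at most 0.137 FPKM in H209. The filter fixed the direction of these genes. Of the other pairs, with equal sums, 8 had only the first member called, higher in H209, and 6 had both members higher. In 3 pairs only the second was called, lower in H209, in 1 pair only the first was, also lower, in 1 pair neither was called, and 3 pairs had an untested member. Among these other pairs, ALDOC, ATP1B1, PTBP1 and PTBP2 lost their higher calls with median ratios, and ALDOA and CNN3 were called lower. TAGLN3, the neuronal transgelin, had 254 and 303 FPKM in H209, against no more than 0.0366 FPKM in MRC5 (log2 fold change 8.10 ± 0.10 SE, adjusted p = 4.49e-08) and made up 97.7% and 98.4% of its sum with TAGLN in H209, against at most 0.00326% in MRC5. ENO2, neuron-specific enolase and a serum marker of this tumour, had 235 and 245 FPKM in H209, against 16.9, 16.1 and 13.8 FPKM in MRC5 (log2 fold change 3.87 ± 0.093 SE, adjusted p = 2.11e-07), while ENO1 had 163 and 155 FPKM in H209, against 598, 604 and 559 FPKM in MRC5 (log2 fold change -1.88 ± 0.058 SE, adjusted p = 5.03e-07). The ENO2 share of the pair was 59.1% and 61.3% in H209, against 2.74%, 2.59% and 2.41% in MRC5.

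TUBB3, the neuronal beta tubulin, is listed at overlapping loci and was taken at the higher one, where it had 237 and 232 FPKM in H209, against 31.7, 35.6 and 32 FPKM in MRC5 (log2 fold change 2.79). TUBB6, a widespread form, had 26.2 and 29.9 FPKM in H209, against 149.6, 169 and 172 FPKM in MRC5 (log2 fold change -2.50). LMNB1, lamin B1, had 116 and 107 FPKM in H209, against 3.01, 2.4 and 2.29 FPKM in MRC5 (log2 fold change 4.98 ± 0.11 SE, adjusted p = 1.52e-07), while LMNA, the lamin of stiff tissues, had 86.3 and 77.1 FPKM in H209, against 326, 363 and 369 FPKM in MRC5 (log2 fold change -2.10 ± 0.081 SE, adjusted p = 1.26e-06). The lamin B1 share was 57.3% and 58.0% in H209, against 0.915%, 0.658% and 0.617% in MRC5. Cyclin D3, CCND3, was level with 29.5 and 28.7 FPKM in H209, against 28.3, 28.7 and 28.8 FPKM in MRC5, so its share of the sum with CCND1, 97.5% and 97.9% in H209 against 7.55%, 7.73% and 6.99% in MRC5, followed CCND1 alone. LDHB and LDHA did not separate the lines, with an LDHB share of 48.3% and 54.3% in H209 and of 46.8%, 48.5% and 46.8% in MRC5, where the libraries overlapped. PTBP2, the neuronal splicing repressor, was called higher with PTBP1 under equal sums and neither was under median ratios, and its share was 5.26% and 5.91% in H209 and 7.04%, 5.91% and 6.59% in MRC5.

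**Figure D5:**
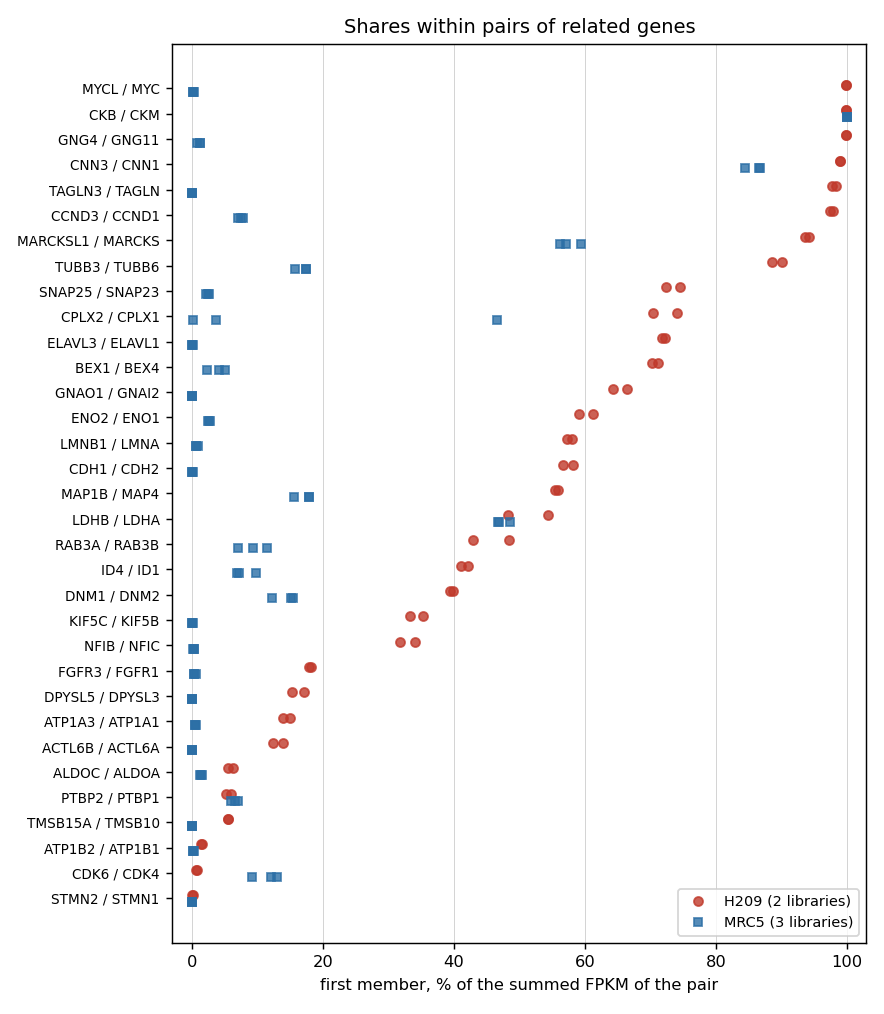
Share of the first gene in the summed rescaled FPKM of each of 33 pairs, in percent, with circles for the 2 H209 libraries and squares for the 3 MRC5 libraries; pairs are ordered by their mean share in H209. Circles lie right of the squares in most pairs, the LDHB and LDHA pair and the PTBP2 and PTBP1 pair show near or overlapping points, and in the CDK6 and CDK4 pair the squares lie right of the circles.

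Called genes were not spread evenly over the 41 chromosome arms that held 50 or more tested genes. On 3p, an arm that small cell lung carcinoma is known to lose, 18.1% of 430 tested genes were called higher and 26.7% lower, beside 42.2% and 14.3% of all tested genes (relative median -0.97). Arms 8p and 5q had relative medians of -0.81 and -0.80. On 5p, an arm often gained in this tumour, 63.9% of 158 tested genes were called higher and 13.9% lower (relative median 0.72), and 18q and 8q had relative medians of 0.53 and 0.48. RNA tables carry no copy number, and its part in these shares was not tested.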

How the data were processed

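RNA of H209 (2 libraries) and MRC5 (3 libraries) was measured as FPKM per gene. The authors deposited FPKM from Cufflinks 2.2.0 with TopHat2 2.1.0 and Bowtie2 on hg19, with HOMER 4.8 also listed, per the submitters' processing notes. The RNA selection, strand, depth and origin of the cultures were not given in the sources used here, so overlapping or antisense genes may share reads. The tables hold FPKM and confidence intervals but no counts, and these intervals give the precision.

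The 37 chrM loci and 2239 small RNA symbols, which held 11.2% to 13.2% of the deposited FPKM, were left out, and the rest was rescaled to equal sums (factors 0.891 to 1.13). Genes at 1 deposited FPKM or more in 2 or more of the 5 libraries were tested with limma 3.58.1 (R 4.3.3, eBayes with trend). The test used log2(FPKM + 1) of the rescaled values. Calls took p-values adjusted by Benjamini-Hochberg across the 17172 tested genes, below 0.05, with a log2 fold change of 1 or more in size. The fit was also run on simulated data with independent noise in each library, which cannot show whether libraries of a line are technical repeats. The 88 genes with another status in a library, 48 of them tested, were kept. Summaries and promoter searches used Python 3.11.15.

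Members and lists were chosen with earlier results of these data known. Named genes are the 12 highest and 12 lowest calls at a mean of 5 FPKM or more in the higher line, leaving out unnamed clones and Y-linked genes, up to 4 per list and direction, members called against their list, 24 core genes, 33 pairs and markers of other cell types. ACTG2, ANKRD1, ATF4, CCNB2, CTCF, HOXA5, HOXB6, HOXD9, MYLK, PLK1 and RAD21 were chosen after their values were seen. Alternatives covered the pseudocount, the filter, the scaling, the libraries fitted, the variance model, the status and the threshold. The Hi-C tables and, outside 1 alternative, the RNA of the other carcinoma line were not used here. A few genes of the lists are counted but not reported here by name.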

Additional observations from a re-analysis of the deposited data

How the results depend on the processing

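The fold change threshold, the scaling and the pseudocount moved the counts most, while no call turned into a call in the other direction among 1253 genes followed under the alternatives. Genes that are not called can change sign with the scaling. Against 7248 genes called higher in H209 and 2463 genes called lower in H209, scaling by median ratios gave 4344 and 4101, scaling by TMM 4223 and 4238, and quantile normalization 4082 and 3903. FPKM as deposited gave 6257 and 2832, a share of higher calls of 68.8%. A pseudocount of 5 gave 3938 higher and 1571 lower, a threshold of 2 on the log2 fold change gave 2879 and 1162, and no minimum fold change gave 10785 and 4310. Median ratios lower all genes together, so the balance turned in groups with a median just above 0, namely the respiratory chain, glycolysis and the RB and checkpoint group.

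Leaving out each library in turn gave 7101 to 7356 genes called higher in H209 and 2401 to 2509 genes called lower in H209, where a lone H209 library is assumed to vary like MRC5. Under median ratios 91 of the 1253 genes lost their call and 131 gained one, and under a pseudocount of 5 150 genes lost it. All 8 RNA libraries in the fit and eBayes without a trend changed none of the 1253 genes. The lines share replicate numbers 1 and 2, but with 2 pairs whose deviations correlated at 0.176 the numbers were not taken as a pairing. A replicate block over them gave 7290 higher and 2443 lower calls, and 3 of the 1253 genes lost theirs. Depth limits genes near 1 FPKM, whose deposited intervals are widest.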

Other observations

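Zinc finger genes, found after the values were seen, lay mostly on the H209 side. Of 481 tested genes with a ZNF symbol, 319 (66.3%) were called higher and 10 (2.08%) lower with equal sums, beside 42.2% and 14.3% of all tested genes, and 184 and 23 with median ratios. On chromosome 19, where most KRAB zinc finger genes stand in clusters, 170 of 237 (71.7%) were called higher and 4 lower, against 149 of 244 (61.1%) and 6 elsewhere with equal sums. With median ratios the higher shares were close, at 39.2% on chromosome 19 against 37.3% elsewhere. The difference between chromosome 19 and the rest was not tested. Histone genes with a HIST symbol were called higher in 26 of 37 (70.3%) and lower in 3 (8.11%), beside 42.2% and 14.3% of all tested genes. With median ratios 16 (43.2%) were called higher and 4 (10.8%) lower, beside 25.3% and 23.9%. For zinc finger and histone genes the number that passed the filter through 1 line alone was not counted. Most transcripts of the HIST genes lack a poly(A) tail, and the RNA selection is not given in the sources used here.

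Along the genome, 88 runs of at least 8 neighbouring tested genes were called higher and 3 were called lower with equal sums, where 42.2% and 14.3% of all tested genes were. With median ratios, which called 25.3% and 23.9%, such runs numbered 17 and 15. A run of 24 zinc finger and neighbouring genes from ZNF493 to ZNF254 (chr19:21579921-24312654 in hg19) and a run of 20 from ZNF671 to ZNF329 (chr19:58231119-58666477) were called higher throughout with equal sums, and 22 and 15 of their genes with median ratios. The lower runs held 12 genes from CETN3 to ARSK (chr5:89688078-94940768), 9 from OR51E2 to TRIM22 (chr11:4701401-5959849) and 8 from ARHGAP42 to BIRC2 (chr11:100558384-102249401), the last with YAP1. Neighbours can share a copy number, a domain or overlapping reads, and none of these was tested.

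The mitochondrial gene MT-CO1, outside the tested set, had 6881 and 7238 deposited FPKM in H209 and was listed at 0 in all 3 MRC5 libraries with a status of too much data, so the 0 is a skipped estimate and not a level.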
